A study of Mus musculus with 2 samples.

Results

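The genes described are the subunits of the receptors for type I interferon (Ifnar1 and Ifnar2) and for interferon gamma (Ifngr1 and Ifngr2), the Janus kinases Jak1, Jak2 and Tyk2, and the feedback inhibitor Socs1. They were taken by symbol, and all 8 were rows among the 17139 genes listed in both expression matrices. They were measured by scRNA-seq in droplets on endothelial cells (ECs) of Lewis lung carcinoma (LLC) tumours implanted in adult C57BL/6 mice (C57BL/6 J in the methods). A PBS-injected tumour of 1 mouse gave 1 library, and a cGAMP-injected tumour of another mouse gave the other. cGAMP is the cyclic dinucleotide that activates the innate sensor STING. The cells had been sorted as live CD31+ cells without CD45, the day after injection according to the methods, while a supplementary legend of the same data gives a shorter time. Since each condition is 1 library, no test was made, and a difference between the libraries cannot be told apart from a difference between the 2 mice or preparations.

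Type I interferons bind a receptor of IFNAR1 and IFNAR2, to which the kinases TYK2 and JAK1 are attached. Interferon gamma binds a receptor of IFNGR1 and IFNGR2, which carries JAK1 and JAK2. The kinases phosphorylate STAT proteins, which enter the nucleus as dimers or together with IRF9 and switch on interferon target genes, among them SOCS1, which binds the kinases and blocks them. ECs bear both receptors and respond to interferon with chemokines, guanylate-binding proteins and antigen-presentation genes.

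The promoter sequences are shown because the 2 genes with the highest log2 ratio of the 8, Socs1 and Ifnar2, and the gene with the lowest, Ifnar1, were also those with a match to an interferon-related motif. All 8 genes matched RefSeq promoters on GRCm38.p6, of 250 bases before and 50 after the start. The motifs searched on both strands were GAAANNGAAA, the core of the interferon-stimulated response element (ISRE) bound by STAT proteins together with IRF9, and TTCNNNGAA, the gamma-activated site (GAS) bound by STAT dimers. The ISRE core was in 3.44% and the GAS in 8.30% of all 32851 promoters. Bases in capitals are the matches. In the Socs1 promoter, on the minus strand at chr16:10785537-10785686, 2 overlapping ISRE cores began 83 and 77 bases before the RefSeq start. The Ifnar2 stretch, at chr16:91372533-91372612 on the plus strand, held a GAS 214 bases before the start, and the Ifnar1 stretch, at chr16:91485125-91485224 on the plus strand, held one 5 bases before it, reaching across the RefSeq start, which lies upstream of the GENCODE start given for the gene. A match is a description of the letters and no evidence of binding, and a relation of the matches to the log2 ratios was not tested.
Socs1: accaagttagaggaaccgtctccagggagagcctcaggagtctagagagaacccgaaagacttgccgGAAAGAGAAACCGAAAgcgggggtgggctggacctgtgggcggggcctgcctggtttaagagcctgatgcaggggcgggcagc
Ifnar2: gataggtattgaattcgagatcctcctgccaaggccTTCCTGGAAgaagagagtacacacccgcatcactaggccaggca
Ifnar1: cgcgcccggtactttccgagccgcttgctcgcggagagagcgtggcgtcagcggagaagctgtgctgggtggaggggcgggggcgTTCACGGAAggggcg
Neither motif was found in the windows of the other 5 genes, Ifngr1, Ifngr2, Jak1, Jak2 and Tyk2.

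The PBS library held 2517 ECs with 92081146 UMIs, and the cGAMP library 1340 ECs with 63366746 UMIs. The cells of the cGAMP library were deeper, at a median of 41178 against 29780 UMIs per cell, and had a lower median mitochondrial share, 2.87% against 4.49%. The libraries shared 1 cell barcode. All 9 endothelial markers were detected in both libraries, at a summed 5728 CPM in PBS-treated and 6640 CPM in cGAMP-treated ECs. The markers did not move together. The most abundant, Egfl7, was at 1182 CPM and 2122 CPM, while Pecam1 was at 944 CPM and 824 CPM and Cdh5 at 1146 CPM and 1008 CPM. The 6 pan-leucocyte markers summed to 19.4 CPM and 26.7 CPM, the 7 macrophage or monocyte markers to 15.1 CPM and 31.3 CPM, and the 4 neutrophil markers to 0.652 CPM and 17.0 CPM. Ptprc, which encodes CD45, had 23 and 38 UMIs, and Epcam was at 4 UMIs with PBS and at 0 with cGAMP. The mural or fibroblast markers summed to 8.56 CPM and 3.72 CPM, the epithelial or tumour markers to 2.15 CPM and 0.394 CPM, the erythroid markers to 84.4 CPM and 57.7 CPM, and the 2 of 6 T or NK markers that were listed to under 0.1 CPM in both. Levels are UMIs of a gene summed over the cells of a library per 1000000 UMIs of that library (CPM), with exact Poisson 95% intervals, and changes are log2 ratios of cGAMP over PBS. All intervals cover counting error only. The 3′ end of transcripts was counted and the values hold no length scaling, so levels were compared within a gene and not between genes.

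Of the 8 genes, 1 was higher past 1.5-fold in the cGAMP-treated ECs, Socs1, beside 4.53% of the 9509 genes that reached 5 CPM in a library. Another was lower past 1.5-fold, Ifnar1, beside 7.41% of those genes. By any amount, 5 of the 8 were higher, Ifnar2, Ifngr2, Jak1, Jak2 and Socs1, beside 40.4% of all genes. The median log2 ratio was 0.06 over the 8 genes and -0.08 over all genes. The receptor and kinase genes other than Ifnar1 lay within 1.5-fold between the libraries.

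Ifnar1, which encodes the signalling subunit that binds TYK2 (chr16:91485238-91507441 on the plus strand of GRCm38), was at 56.0 CPM (54.5 to 57.6) in PBS-treated and 34.1 CPM (32.6 to 35.5) in cGAMP-treated ECs. The intervals were far apart, and the log2 ratio was -0.72 (-0.79 to -0.65), which left 4.43% of all genes below it. Ifnar2, which encodes the high-affinity subunit that binds JAK1 (chr16:91372783-91405589, plus strand), moved the other way. It was at 89.7 CPM (87.8 to 91.7) in PBS-treated and 115 CPM (112 to 117) in cGAMP-treated ECs, a log2 ratio of 0.35 (0.31 to 0.40), with 89.3% of all genes below it. The difference between the log2 ratios of the receptor's subunits does not depend on the library totals, and it was -1.07 (-1.16 to -0.99). In UMIs, 62.4 of Ifnar1 were counted per 100 of Ifnar2 with PBS and 29.7 with cGAMP. This difference was computed after the single values had been seen.

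The receptor for interferon gamma showed no such divergence. Ifngr1, the ligand-binding subunit (chr10:19591949-19610229, plus strand), was at 117 CPM (115 to 119) in PBS-treated and 113 CPM (110 to 115) in cGAMP-treated ECs. Its log2 ratio of -0.06 (-0.10 to -0.01) was close to the median of all genes, and was 0.02 with median-of-ratios scaling. Ifngr2, the signalling subunit (chr16:91547072-91565623, plus strand), was at 88.4 CPM (86.5 to 90.4) and 93.0 CPM (90.6 to 95.4), a log2 ratio of 0.07 (0.02 to 0.12). Ifnar2, Il10rb, Ifnar1 and Ifngr2 lie in this order and on the same strand on chr16. The 4 neighbours moved in different directions, since Il10rb, a subunit of the receptors for IL-10 and interferon lambda (chr16:91406164-91425834), was at 67.3 CPM and 55.1 CPM, a log2 ratio of -0.29 (-0.35 to -0.23). A further annotated gene, Gm21970, overlaps Ifnar2 and Il10rb on their strand. It was not analysed here, and its part in the counts of either was not tested.

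Among the kinases, Jak1, which serves both receptors (chr4:101152367-101265282, minus strand), was at 259 CPM (256 to 262) in PBS-treated and 268 CPM (264 to 272) in cGAMP-treated ECs. The log2 ratio was 0.05 (0.02 to 0.08), and with the states of the cells held at equal proportions it was -0.09. The sign of so small a difference was thus not the same with both weightings, and the part of the mix of states was not tested. Jak2, the partner of IFNGR2 (chr19:29251828-29313080, plus strand), was at 60.6 CPM (59.0 to 62.2) and 72.1 CPM (70.0 to 74.2). Its log2 ratio was 0.25 (0.19 to 0.31), and 0.11 at equal proportions. Tyk2, the partner of IFNAR1 (chr9:21104068-21131243, minus strand), was sparse in both libraries, with 850 and 428 UMIs. It was at 9.23 CPM (8.62 to 9.87) and 6.75 CPM (6.13 to 7.43), a log2 ratio of -0.45 (-0.62 to -0.28), with 12.6% of all genes below it. It was thus lower in the cGAMP library, as were 5669 of the 9509 genes that reached 5 CPM in a library. After each cell was thinned to 5000 UMIs the log2 ratio of Tyk2 was -0.03, on few UMIs.

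Socs1 (chr16:10782240-10785536, minus strand) stood apart from the other 7 genes. It was counted with 611 UMIs with PBS and 1125 with cGAMP, in a smaller library, that is at 6.64 CPM (6.12 to 7.18) and 17.8 CPM (16.7 to 18.8). The level in cGAMP-treated ECs was 2.68-fold that in PBS-treated ECs, a log2 ratio of 1.42 (1.28 to 1.56), with 98.9% of all genes below it. Leucocytes also express Socs1, and leucocyte transcripts were higher in the cGAMP library. In the cells without any UMI of Ptprc, Lyz2, S100a8 or S100a9, 2125 PBS-treated and 701 cGAMP-treated ECs, the log2 ratio of Socs1 was 1.43. Cells without a UMI of these genes can still hold leucocyte RNA, and its part in the counts of Socs1 was not tested.

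**Figure D1:**
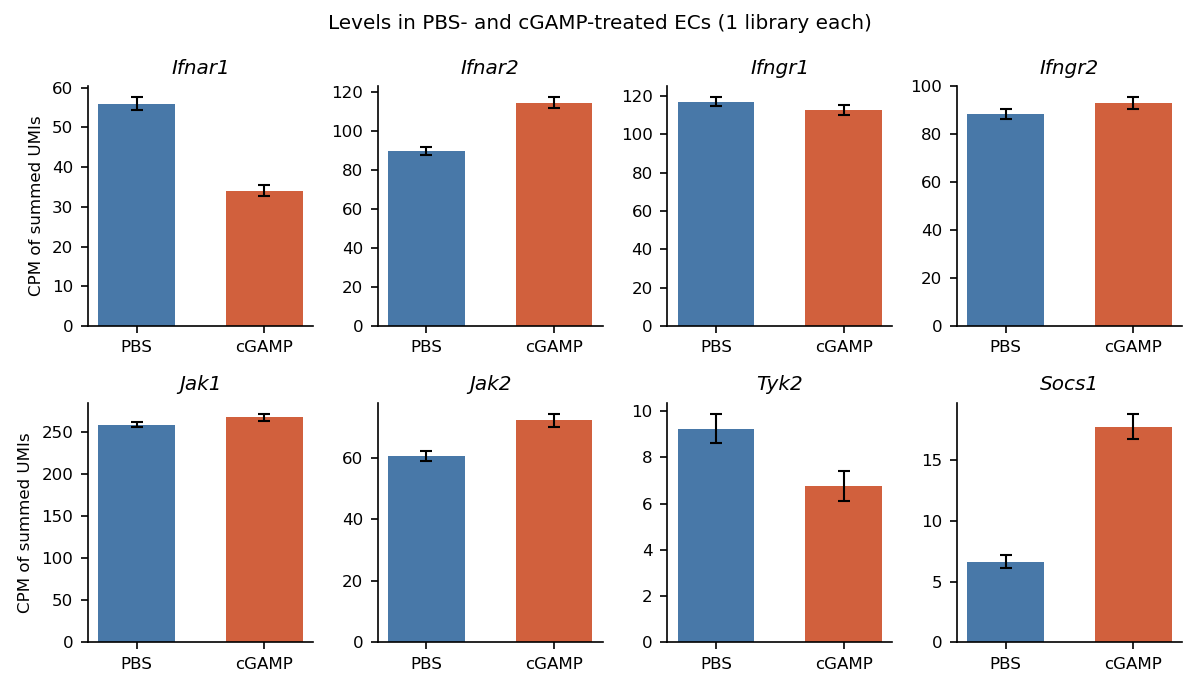
Levels of the 8 genes in CPM of summed UMIs in the PBS library (blue) and the cGAMP library (orange). Bars are 1 library each and error bars are exact Poisson 95% intervals, and Ifnar1 was lower and Socs1 higher in the cGAMP library past 1.5-fold.

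**Figure D2:**
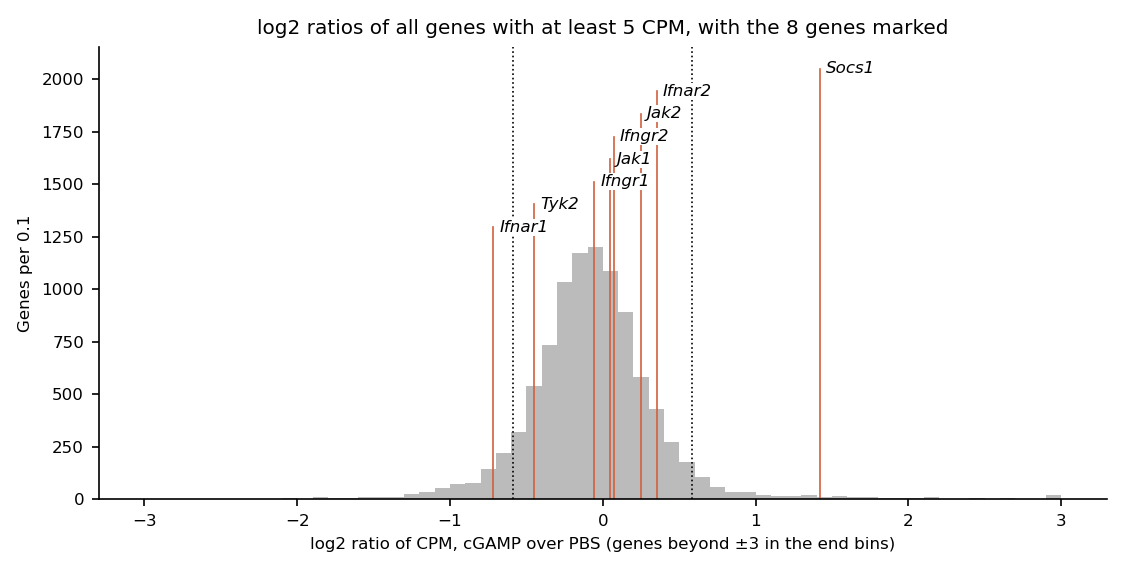
Number of genes per step of 0.1 in the log2 ratio of cGAMP over PBS, over the genes that reached 5 CPM in a library and had UMIs in both. Orange lines mark the 8 genes and dotted lines 1.5-fold, and Socs1 at 1.42 and Ifnar1 at -0.72 lie outside the dotted lines.

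Receptor subunits were found in most cells. Without thinning, a UMI of Ifnar1 was held by 68.7% of the cells with PBS and 67.0% with cGAMP, 86.5% and 93.9% held one of Ifnar2, and 96.8% and 97.5% one of Jak1. The cGAMP-treated cells were deeper, so shares were compared at 5000 UMIs per cell, over 2447 PBS-treated and 1327 cGAMP-treated ECs, leaving out 70 and 13 shallower cells. At this depth the share of cells with a UMI of Ifnar1 was 21.9% (exact binomial interval 20.3 to 23.6) in PBS-treated and 15.3% (13.4 to 17.4) in cGAMP-treated ECs. The share with Ifnar2 was 37.1% (35.2 to 39.0) and 43.3% (40.6 to 46.0). The share with Socs1 was 3.31% (2.64 to 4.10) and 7.23% (5.90 to 8.76), and 17.6% and 36.6% without thinning. These 3 were the genes whose intervals did not overlap. For genes that ECs should lack, the shares at the same depth were 1.80% and 4.90% for the macrophage gene Lyz2, 0.164% and 0.151% for Ptprc, and 0 of 2447 and 0 of 1327 cells for Epcam, with exact binomial upper limits of 0.151% and 0.278%, which bound the cells with a UMI at this depth and not the cells that express the gene. Without thinning, a UMI of Lyz2 was in 13.5% and 38.4% of cells, below the unthinned share of Socs1 in the PBS library and above it in the cGAMP library. The share of cells with Lyz2 thus moved with Socs1 between the libraries, and free RNA cannot be told apart from expression in a single cell at so low a share. Tyk2, at 3.72% and 3.54%, was at a like low level.

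While the single shares of the type I receptor's subunits differed in opposite directions, the share of cells with both was 7.89% (6.85 to 9.03) in PBS-treated and 7.76% (6.38 to 9.34) in cGAMP-treated ECs at 5000 UMIs. Both subunits of the interferon gamma receptor were found in 14.9% (13.5 to 16.4) and 15.2% (13.3 to 17.2). Jak1 together with Jak2 was found in 18.1% (16.6 to 19.7) and 20.2% (18.1 to 22.5), and Jak1 together with Tyk2 in 2.37% (1.81 to 3.05) and 2.34% (1.59 to 3.30). None of these pairs had intervals apart at 5000 UMIs. With cells thinned to 10000 UMIs, both subunits of the type I receptor were found in 21.97% (20.31 to 23.71) of 2335 PBS-treated ECs. The share was lower in the 1284 cGAMP-treated ECs of that depth, 17.76% (15.7 to 19.96), with intervals apart. The result for this pair thus depended on the depth, while the intervals of the other pairs overlapped at 10000 UMIs as well. At full depth, 62.9% and 65.2% of cells held both subunits of the type I receptor and 76.6% and 87.8% both of the interferon gamma receptor.

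The ECs were grouped into 8 states by clustering without the 8 genes and without the genes of the pathway lists. By markers, 1 state was stalk-like, led by Ackr1 and Selp, and 1 arterial, led by Gja4. A pair of states was tip-like, led by Gal and by Ankrd1, and a pair was proliferative, led by Hist1h1b and by Cenpf. The states led by Ramp3 and by Igfbp5 stayed unnamed, the latter although 15 of 15 stalk-like markers were raised in it, since none was among its 10 leading genes. The Igfbp5-led state was not named arterial either, since only 3 arterial markers were raised, although 1 was among those 10. The stalk-like state held 354 cells with PBS and 351 with cGAMP, 14.1% and 26.2%, and the Gal-led tip-like state 355 and 119, 14.1% and 8.88%. The Igfbp5-led state was the smallest, with 45 and 53 cells. Of the 8 genes, 6 were highest in the same state in both libraries (all but Ifnar2 and Tyk2), beside 54.7% of all genes.

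Ifnar1 was highest in the tip-like states. In PBS-treated ECs it was at 99.7 CPM in the Gal-led tip-like state, 68.3 CPM in the Ankrd1-led tip-like state, 56.1 CPM in the Ramp3-led, 51.3 CPM in the arterial, 44.0 CPM in the Cenpf-led and 39.7 CPM in the Hist1h1b-led proliferative states, 39.2 CPM in the stalk-like and 33.2 CPM in the Igfbp5-led state. In cGAMP-treated ECs the Gal-led state was again at the top with 64.2 CPM, before the Ankrd1-led with 39.3 CPM, and the Igfbp5-led state was at the bottom with 26.4 CPM. The Gal-led state was apart from the next by its interval in both libraries, while 5 of 7 neighbouring pairs in the order of the PBS library and 6 of 7 in the cGAMP library overlapped.

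Both subunits of the interferon gamma receptor were also highest in the Gal-led tip-like state. Ifngr1 was there at 171.5 CPM in PBS-treated and 148.5 CPM in cGAMP-treated ECs, and otherwise between 94.2 CPM and 127 CPM and between 84.8 CPM and 121 CPM. Ifngr2 was there at 117 CPM and 120 CPM, against 56.3 CPM and 63.6 CPM in the lowest state, led by Igfbp5. In the cGAMP library the interval of the highest state overlapped that of the next for both genes. Ifnar2 varied less, from 77.3 CPM to 115 CPM among PBS-treated ECs, where all 7 neighbouring pairs overlapped. In cGAMP-treated ECs it ranged from 96.5 CPM in the Cenpf-led proliferative state to 159 CPM in the Ankrd1-led tip-like state.

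The kinases had another order. Jak1 was highest in the stalk-like state, at 385 CPM in PBS-treated and 370 CPM in cGAMP-treated ECs. In the cGAMP library the interval of that state overlapped that of the next, the Igfbp5-led state. Jak1 was lowest in the Ankrd1-led tip-like state, at 178 CPM and 143 CPM. The Gal-led tip-like state was next to it, at 213 CPM and 179 CPM. The order of Jak1 was the most finely resolved, since 3 of 7 neighbouring pairs overlapped in the PBS and 4 of 7 in the cGAMP library. Jak2 was also highest in the stalk-like state, at 99.5 CPM and 95.7 CPM, and lowest in the Gal-led tip-like state, at 44.9 CPM and 50.2 CPM. The Gal-led tip-like state, where Ifnar1, Ifngr1 and Ifngr2 were highest, was thus among the 2 lowest for Jak1 and Jak2. Tyk2 was between 7.11 CPM and 12.2 CPM in the PBS library and between 5.11 CPM and 8.68 CPM in the cGAMP library, and all its neighbouring pairs overlapped.

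Socs1 was highest in the arterial state in both libraries, at 9.33 CPM (7.52 to 11.4) in PBS-treated and 28.7 CPM (24.8 to 33.1) in cGAMP-treated ECs. The stalk-like state came next, at 8.02 CPM (6.33 to 10.0) and 24.1 CPM (21.7 to 26.5), with overlapping intervals. The lowest states were the Ankrd1-led tip-like state in the PBS library, at 3.59 CPM on 17 UMIs, and the Igfbp5-led state in the cGAMP library, at 8.12 CPM on 12 UMIs. The other states of the cGAMP library lay between 11.1 CPM and 14.9 CPM, so that the arterial and stalk-like states were apart from the rest there and not in the PBS library. When all variable genes were used for clustering, a state led by Cxcl10 formed and was the highest for Socs1 in both libraries.

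**Figure D3:**
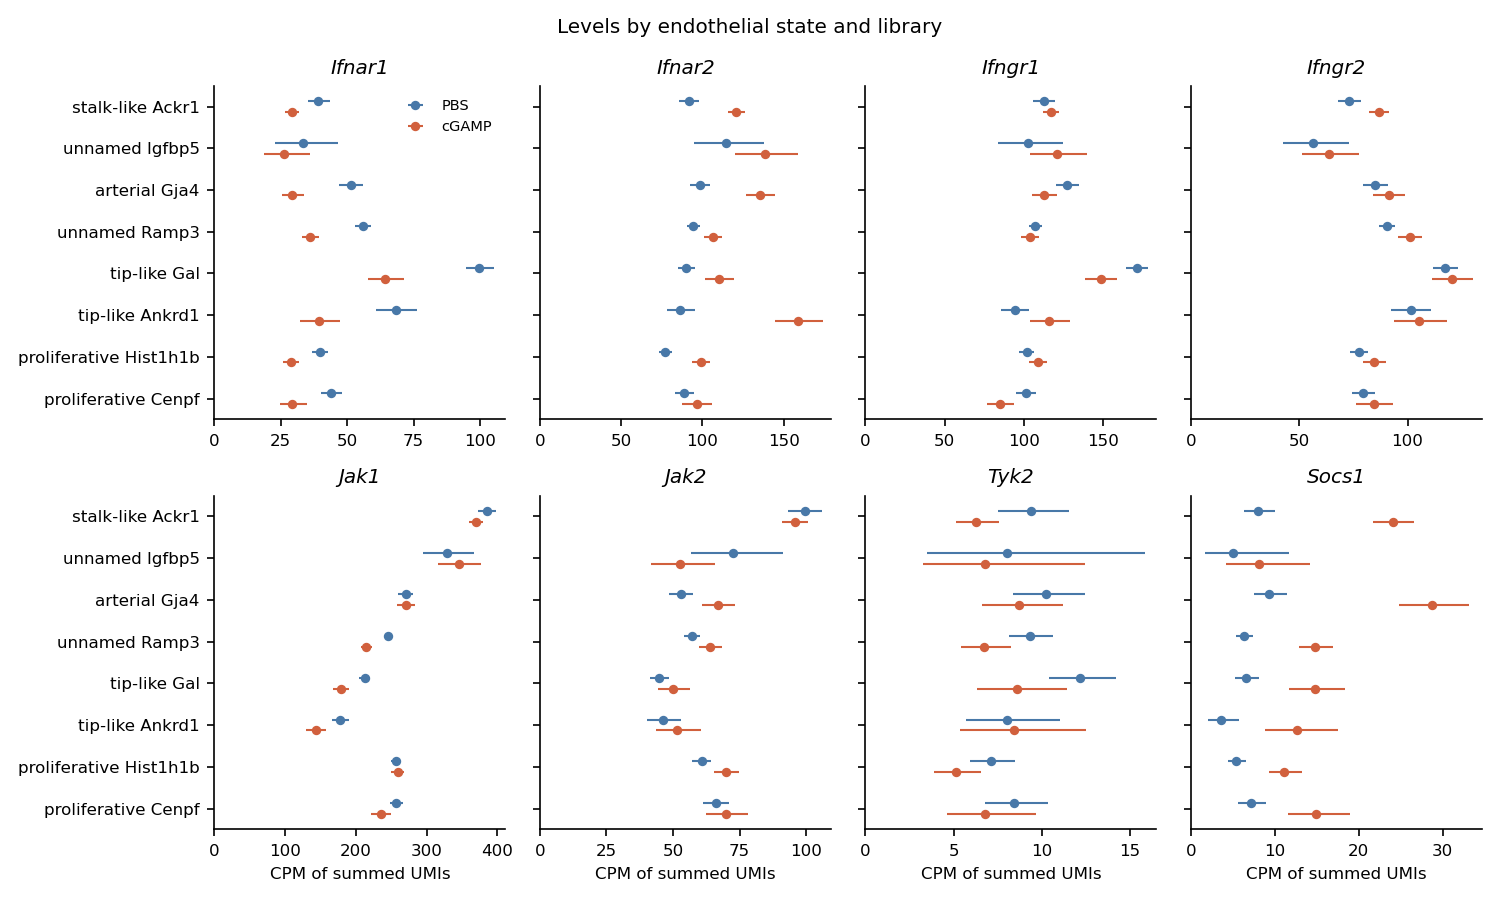
Levels of the 8 genes in CPM of summed UMIs in each endothelial state of the PBS library (blue) and the cGAMP library (orange), with exact Poisson 95% intervals as bars. Ifnar1, Ifngr1 and Ifngr2 were highest in the Gal-led tip-like state, Jak1 and Jak2 in the stalk-like state and Socs1 in the arterial state. The interval of the highest state overlapped that of the next for Ifngr1, Ifngr2 and Jak1 in the cGAMP library and for Socs1 in both.

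Within states, the differences between the libraries of Ifnar1, Ifnar2 and Socs1 kept their direction. Ifnar2, Ifngr2 and Socs1 were higher in cGAMP-treated ECs of all 8 states, beside 13.7% of all genes, and Ifnar1 was lower in all 8, beside 19.6% of all genes. When the libraries were clustered without integration, Ifngr2 was lower in 1 of 5 states, and the other 3 kept 1 direction. The log2 ratio of Ifnar1 ran from -0.33 in the Igfbp5-led state, with an interval that reached 0.34, and -0.42 (-0.62 to -0.23) in the stalk-like state to -0.80 (-1.11 to -0.49) in the Ankrd1-led tip-like and -0.81 (-1.04 to -0.57) in the arterial state. Over the states, 7 of 8 intervals were below 0. The ratio over all cells, -0.72, was farther from 0 than the ratio at equal proportions of the states, -0.60, and the Gal-led state with the most Ifnar1 was a smaller share of the cGAMP library. The part of this smaller share in the ratio was not tested. Ifnar2 had its highest log2 ratio in the Ankrd1-led tip-like state, 0.88 (0.69 to 1.07), from 86.4 CPM to 159 CPM, and its lowest in the Cenpf-led proliferative state, 0.12 (-0.04 to 0.28). The Ankrd1-led state was accordingly the one in which the subunits parted most, with 79.0 UMIs of Ifnar1 per 100 of Ifnar2 with PBS and 24.7 with cGAMP, a difference of log2 ratios of -1.68 (-2.04 to -1.31). In the Igfbp5-led state the difference was -0.61 (-1.35 to 0.14), on few cells.

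The log2 ratio of Socs1 was 1.81 (0.98 to 2.65) in the Ankrd1-led tip-like, 1.62 (1.26 to 1.98) in the arterial and 1.58 (1.23 to 1.94) in the stalk-like state. It was 1.22 (0.91 to 1.52) in the Ramp3-led, 1.17 (0.74 to 1.60) in the Gal-led tip-like, 1.06 (0.59 to 1.53) in the Cenpf-led and 1.04 (0.67 to 1.42) in the Hist1h1b-led state. All these intervals were above 0, and the exception was the Igfbp5-led state with 0.69 (-0.81 to 2.20). Ifngr1 did not have 1 direction, being higher in 4 states and lower in 4. Its log2 ratio was 0.30 (0.10 to 0.51) in the Ankrd1-led tip-like state and -0.25 (-0.42 to -0.09) in the Cenpf-led proliferative state. Jak1 was between -0.32 (-0.49 to -0.15) in the Ankrd1-led tip-like state and 0.07 (-0.13 to 0.27) in the Igfbp5-led state, and lower in 5 of 8 states, although it was slightly higher over all cells. The stalk-like state, which has the most Jak1, was a larger share of the cGAMP library, and the part of this in the ratio over all cells was not tested. Jak2 was higher in 6 of 8 states, up to 0.34 (0.16 to 0.52) in the arterial state, and was -0.06 (-0.17 to 0.06) in the stalk-like state. Tyk2 was lower in 7 of 8 states, with intervals that excluded 0 in 4.

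**Figure D4:**
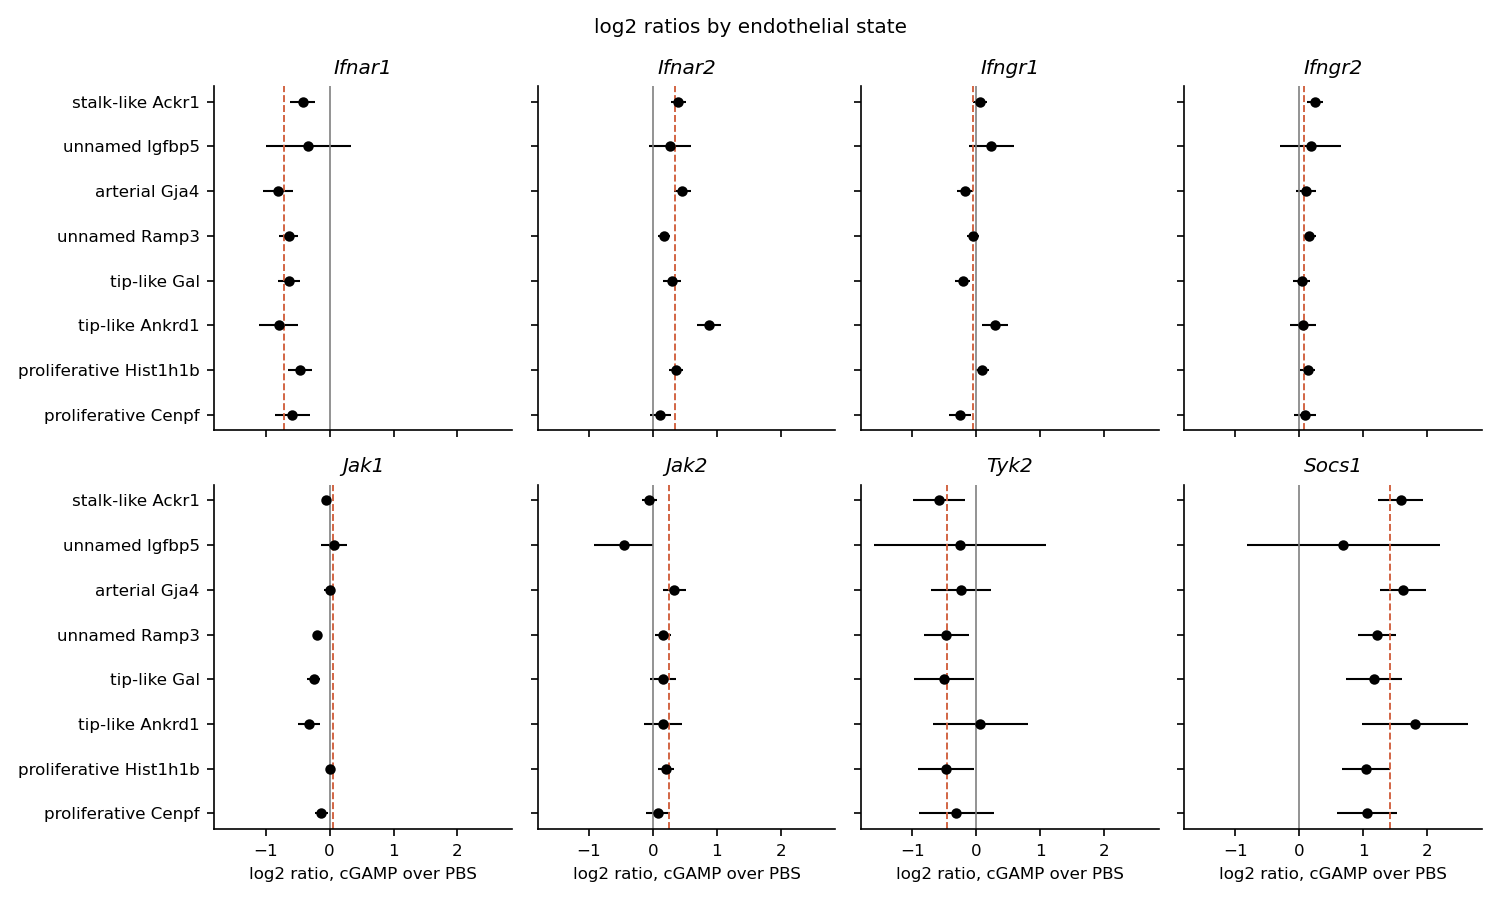
log2 ratio of cGAMP over PBS for each of the 8 genes in each endothelial state (points) with counting intervals (bars), the ratio over all cells (dashed orange line) and 0 (grey line). Ifnar1 lay below 0 and Ifnar2, Ifngr2 and Socs1 above 0 in all 8 states, while the points of Ifngr1 lay on both sides.

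To relate the 8 genes to the interferon response of the same cells, ECs were ordered by their UMIs of 27 interferon target genes per 10000 UMIs and divided into 4 equal ranges in each library. The ranges are cuts through a continuous score, and 338 PBS-treated and 150 cGAMP-treated ECs lay within 5% of a cut. Socs1 was at 4.31 CPM (3.5 to 5.26) in the lowest and 11.7 CPM (10.4 to 13.2) in the highest range of the PBS library, a 2.72-fold difference. In the cGAMP library it was at 9.06 CPM (7.66 to 10.6) and 32.5 CPM (29.8 to 35.3), a 3.58-fold difference. Of the 8 genes, Socs1 was the only one at least 1.5-fold higher in the top than in the bottom range of both libraries, beside 2.85% of all genes, among which are the target genes themselves. Ifnar2 went from 78.3 CPM to 103 CPM in the PBS and from 92.9 CPM to 135 CPM in the cGAMP library. Jak2 went from 55.9 CPM to 65.3 CPM and from 58.8 CPM to 85.6 CPM. Ifnar1 went from 44.2 CPM to 60.6 CPM in the PBS library and from 38.6 CPM to 32.1 CPM in the cGAMP library, so its direction differed. The mix of states changed along the ranges, and the stalk-like state made up 10.4% of the lowest and 45.4% of the highest range of the cGAMP library. The median mitochondrial share went from 3.19% to 2.43% along these ranges, and its part in the levels was not tested. Within each state, the cells above the median of their target level had more Socs1 than those below it in 8 of 8 states in both libraries, with intervals apart in 3 states of the PBS and 5 of the cGAMP library. For Ifnar2 this was so in 8 of 8 states in both libraries, with intervals apart in 2 and 5, and for Jak2 likewise, with intervals apart in 1 and 2. Ifnar1, Ifngr1 and Jak1 were higher above the median in 8 of 8 states of the PBS library, and in 3, 4 and 6 states of the cGAMP library. The share of all genes that were higher above the median in every state was not determined. The counts of states are therefore a description and not a trait of these genes.

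The cuts of the cGAMP library were also applied to the PBS-treated ECs, a choice made after seeing the data. Of the PBS-treated ECs, 2185 fell into the lowest range, and 141, 87 and 104 into the next 3. The median target UMIs per 10000 in the PBS-treated and cGAMP-treated ECs were 5.73 and 14.6 in the lowest range, 27.1 and 27.4 in the next, 49.0 and 50.4 in the third, and 122 and 97.6 in the highest, so that target levels were alike in the middle ranges and not in the outer ones. Socs1 was at 5.09 CPM, 7.25 CPM, 9.11 CPM and 35.8 CPM in the PBS-treated ECs of these ranges, and at 9.06 CPM, 13.2 CPM, 15.3 CPM and 32.5 CPM in the cGAMP-treated ECs. In the highest range the intervals of the libraries overlapped (30.1 to 42.3 and 29.8 to 35.3), while in the 3 lower ranges they were apart. Jak2 in the highest range was at 89.4 CPM (80.2 to 99.4) in PBS-treated and 85.6 CPM (81.3 to 90.2) in cGAMP-treated ECs, and its intervals also overlapped in the lowest range and the next, and were apart in the third, at 59.8 CPM (52.0 to 68.5) and 78.5 CPM (74.1 to 83.0). Ifnar1 was at 55.3 CPM, 58.6 CPM, 61.5 CPM and 63.3 CPM in the PBS-treated and at 38.6 CPM, 33.5 CPM, 31.9 CPM and 32.1 CPM in the cGAMP-treated ECs, with intervals apart in all 4 ranges. Ifnar2 overlapped between the libraries in the 3 lower ranges and was at 111 CPM (101 to 122) and 135 CPM (130 to 141) in the highest.

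**Figure D5:**
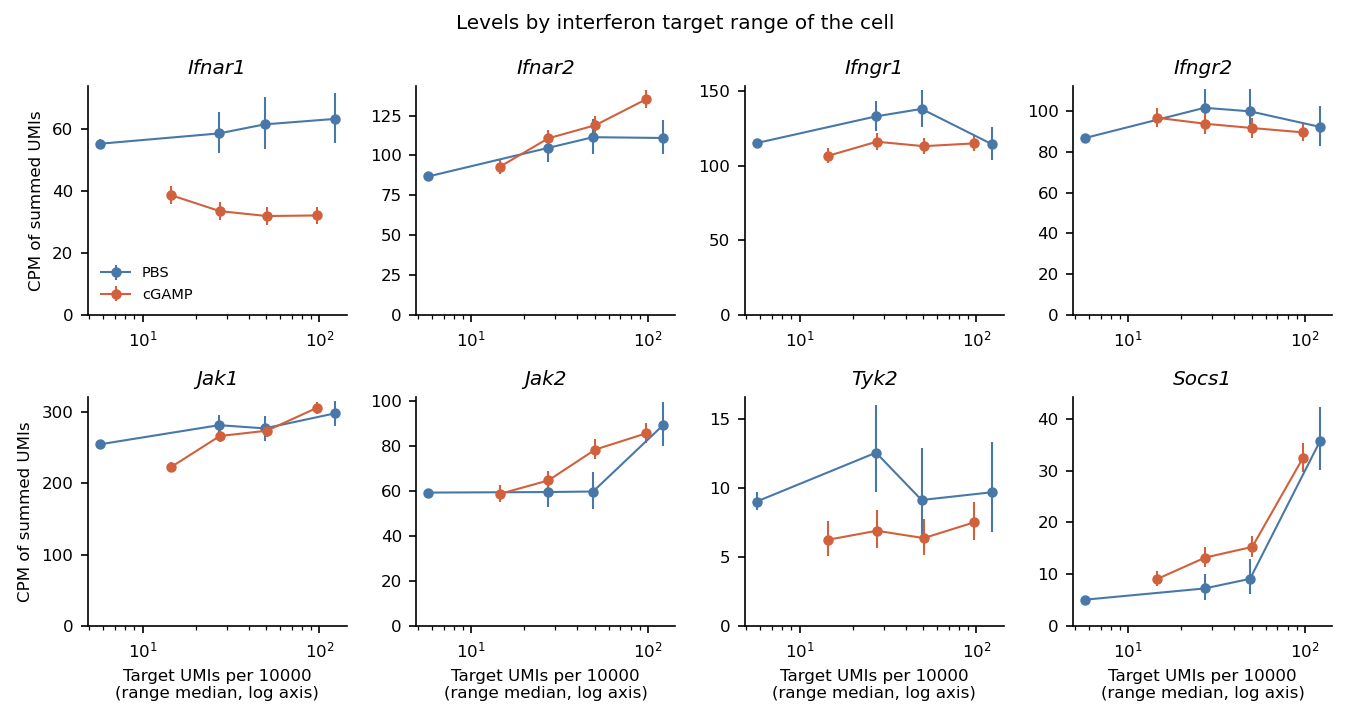
Levels of the 8 genes in CPM of summed UMIs against the median target UMIs per 10000 (log axis) of 4 ranges, with the cuts of the cGAMP library applied to both the PBS library (blue) and the cGAMP library (orange), and exact Poisson 95% intervals as bars. The intervals of Socs1 overlapped between the libraries in the highest range and those of Jak2 in all but the third, while Ifnar1 was lower in cGAMP-treated ECs in every range.

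Other genes of the pathway are given from lists. Of the interferon ligands, Ifne was listed, at 0.120 CPM and 0.110 CPM. The other 9 on the list, among them Ifnb1 and Ifng, had no row among the 17139 genes and so no level. Among the genes for STATs and Irf9, those past 1.5-fold that are reported here were higher, beside 4.53% of all genes. These were Stat2, from 24.1 CPM to 38.1 CPM with a log2 ratio of 0.66, Irf9, from 36.1 CPM to 55.7 CPM with 0.63, and Stat5a, from 4.65 CPM to 9.37 CPM with 1.01. Stat2 and Irf9 encode transcription factors downstream of the type I receptor. Stat3, Stat5b and Stat6 had log2 ratios of -0.09, 0.03 and -0.27, and Stat4 was under 5 CPM. Jak3, the kinase of the common gamma chain, was at 26.3 CPM and 21.1 CPM, a log2 ratio of -0.32.

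Other cytokine receptor genes that use Janus kinases were counted if they had at least 5 CPM in a library, as did 12 of 19 listed. The rest were left out, whatever their direction. Of the 12, 1 was higher past 1.5-fold and none was lower, beside 4.53% and 7.41% of all genes. This was Lifr, the receptor subunit for leukaemia inhibitory factor, from 15.5 CPM to 34.1 CPM with a log2 ratio of 1.14, and the median of the list was 0.20. Of the 7 other SOCS genes, 1 was higher past 1.5-fold and none was lower, beside 4.53% and 7.41% of all genes. Socs3, which restrains signalling through the gp130 receptors, was at 169 CPM and 317 CPM, a log2 ratio of 0.90 (0.87 to 0.93). The log2 ratios of Cish and Socs2, which act on STAT5 signalling, were 0.57 and 0.48, and those of Socs4, Socs5, Socs6 and Socs7 were -0.22, 0.05, -0.01 and -0.52. Of 10 other inhibitors with at least 5 CPM, 1 was higher past 1.5-fold and none was lower, beside the same shares of all genes. Usp18, which binds IFNAR2 and displaces JAK1, was at 20.7 CPM and 52.0 CPM, a log2 ratio of 1.33. Ptpn2, a phosphatase of JAK1, had a log2 ratio of 0.52, and Ptpn1, a phosphatase of JAK2 and TYK2, one of -0.11. Of the others, Ptpn11, Pias1, Pias2, Pias3, Pias4, Sh2b3 and Cbl had log2 ratios of -0.15, -0.27, -0.18, -0.45, -0.22, -0.56 and -0.34, and Ptpn6 was under 5 CPM. The median of the inhibitors was -0.20.

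The target genes used for the ranges were higher as groups. Past 1.5-fold, 4.53% of all genes were higher and 7.41% lower. Of 12 type I leaning targets with at least 5 CPM, 10 were higher past 1.5-fold and none was lower, with a median log2 ratio of 1.49. The 6 with the highest ratios were Irf7 at 2.98, Ifit3 at 1.87, Isg15 at 1.72, Xaf1 at 1.63, Rtp4 at 1.59 and Oasl2 at 1.53. Of 12 type II leaning targets, 11 were higher and none was lower, also with a median of 1.49. The 6 with the highest ratios were the chemokine Cxcl9 at 3.15, the invariant chain Cd74 at 2.33, the GTPases Irgm1 at 2.15 and Igtp at 1.70, and the guanylate-binding proteins Gbp4 at 1.60 and Gbp2 at 1.51.

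The genes whose pattern was most like that of each gene were found by Pearson's r of log2(CPM + 1) over the 12 combinations of state and library with at least 100 cells, which share 2 libraries. Socs1 was most like Plod3 (0.98), Ly6e (0.98) and Sdf4 (0.97), of which Ly6e is an interferon target. Ifnar2 was most like Irf9 (0.98), Snai1 (0.97) and Ecscr (0.95), and Ifnar1 most like Gna12 (0.98), Myo1d (0.98) and Hspg2 (0.98). Ifngr1 was most like Tlr3 (0.92), Mfsd1 (0.91) and Sema4c (0.90), and Ifngr2 most like Sin3b (0.98), Ndfip1 (0.97) and Prss23 (0.96). Among the kinases, Jak1 was most like Bcl3 (0.97), Cd59a (0.96) and Plxnb2 (0.96), Jak2 most like Fkbp5 (0.95), Bmp4 (0.94) and the adhesion molecule Icam1 (0.94), and Tyk2 most like Kank3 (0.96), Tecpr1 (0.95) and Zfand6 (0.95). These were the highest of at least 5763 genes for each, and high values among so few points are a description only.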

How the data were processed

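The authors mapped reads on mm10 (Cell Ranger 3.0.0), removed low-quality cells, rare genes and clusters without Pecam1, and deposited natural log values, ln(1 + UMIs per 10000 in the cell). The labels name version 2 of the 3′ kit and the methods version 3. The deposited values were turned back into UMIs, and 100% of those above 0 came within 0.01 of a whole number. No doublets were called or removed. Clustering used Seurat 5.3.0 (R 4.3.3), 1781 of 2500 variable genes, without those 2-fold apart between the libraries, the 8 genes and the pathway genes, integration, 30 principal components and resolution 0.5, a resolution not given in the sources used here. A state was named only where at least 3 markers were raised 2-fold, with 5 CPM added, and 1 was among its 10 leading genes, thresholds set after the clusters had been seen. Calculations ran in Python 3.11.15 with scipy 1.17.1. The calculation of log2 ratios was checked on simulated Poisson counts. These hold no spread between cells or mice, so the check covers the arithmetic and not the ratios of these data. Coordinates are from GENCODE vM21. The 8 genes and all lists were chosen with earlier results of these data known. Genes named were the 8, the STAT, SOCS and inhibitor genes, up to 6 genes past 1.5-fold of each other list, and the 3 most similar to each. Of these, 1 gene is not reported here. Intervals are exact Poisson, exact binomial or, for log2 ratios, normal on the log of 2 counts. Alternatives were other scalings, cell filters, fold limits, thinning depths, clusterings and target lists.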

Additional observations from a re-analysis of the deposited data

Results flagged for a closer look

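The log2 ratio of Ifngr1 had opposite signs in different states, 0.30 in the Ankrd1-led tip-like state and -0.25 in the Cenpf-led proliferative state. In each case the counting interval excluded 0, and the difference between the states was not tested, since each rests on 1 library per condition.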

How the results depend on the processing

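No paired analysis was possible because each condition has 1 library. The counts of genes past 1.5-fold, 1 higher and 1 lower, were the same under all 7 scalings and cell filters. At 2-fold 1 gene, Socs1, was higher and 0 were lower, and at the smaller limit tried 2 were higher and 2 lower. The median log2 ratio of the 8 genes was 0.14 with median-of-ratios scaling, which adds the same shift to every gene. Without thinning, 5 genes had shares with intervals apart, where thinned cells gave 3. Over these 7 alternatives the log2 ratio lay between -0.72 and -0.60 for Ifnar1, 0.25 and 0.43 for Ifnar2, 1.31 and 1.5 for Socs1, -0.11 and 0.02 for Ifngr1, 0.03 and 0.15 for Ifngr2, -0.09 and 0.12 for Jak1, 0.09 and 0.33 for Jak2 and -0.45 and -0.03 for Tyk2, so that the signs of Ifngr1 and Jak1 were not fixed. Other clusterings left 5 to 7 genes highest in the same state in both libraries and 4 or 5 with 1 direction in every state. At the finer resolution Ifngr1 was highest in an arterial state of the PBS library, and with all variable genes Jak2 was highest in a Cxcl10-led state of the cGAMP library. With the cuts of the cGAMP library, Socs1 in PBS-treated ECs was 7.04-fold higher in the highest than in the lowest target range, and type I or type II leaning targets alone gave 2.57-fold and 2.76-fold in the PBS and 2.95-fold and 3.71-fold in the cGAMP library. With no minimum level, 8.89% of all genes were higher and 13.4% lower past 1.5-fold. Depth limits Tyk2 and Socs1 within the small Ankrd1-led and Igfbp5-led states, where counts of 5 to 38 UMIs leave wide intervals.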
